A study of Mus musculus with 6 samples.

Results

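The 6 genes described here encode receptors that bind sialic acid, the acidic sugar at the tips of many glycan chains: Cd22, Siglecg, Siglece, Cd33, Siglecf and Siglech. They were chosen by name from the sialic acid-binding immunoglobulin-like lectins (Siglecs) of mouse leukocytes as receptors of B cells, myeloid cells, eosinophils and pDCs (plasmacytoid dendritic cells). The choice was made with earlier results of these data known and left out the macrophage gene Siglec1, so a direction shared by the 6 is a description of these genes and not of the family. All 6 were found among the 55487 gene identifiers of the deposited tables. RNA came from sorted cells carrying CD45, the surface antigen of nearly all leukocytes, labelled as total hematopoietic cells and freshly prepared. Spleen (3 libraries) was compared with mesenteric lymph node, which drains the intestine and is abbreviated mLN (3 libraries). Every library came from wild-type C57BL6/J mice, and the labels give no age, sex or pooling of animals. Libraries held 12584244 to 18119551 expected counts (reads assigned to genes, shared reads being split by a model). Since no label ties a replicate to an animal of its own, the p-values below reflect the spread among these libraries alone, and that spread may be technical.

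Siglecs hold a sugar-binding immunoglobulin domain at their outer end. Most carry tyrosine motifs in the cytoplasmic tail that are phosphorylated by Src family kinases such as Lyn, and these recruit the phosphatase encoded by Ptpn6, which dampens signals of neighbouring receptors. CD22 and Siglec-G restrain the B-cell receptor in this way, Siglec-E and CD33 are found on myeloid cells, and Siglec-F is found on eosinophils. Siglec-H, a marker of plasmacytoid dendritic cells (the interferon-producing dendritic cells), has no such inhibitory motif and signals through the adaptor encoded by Tyrobp.

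All 6 genes lie on chromosome 7 (GRCm38, the assembly also called mm10; extents of whole genes in the annotation GENCODE M21). Cd22 (ENSMUSG00000030577) spans 30865402 to 30880342 on the minus strand. Siglecf (ENSMUSG00000039013, 43351341 to 43359531, plus strand), Siglecg (ENSMUSG00000030468, 43408204 to 43418358, plus strand), Cd33 (ENSMUSG00000004609, 43524216 to 43544428, minus strand) and Siglece (ENSMUSG00000030474, 43651070 to 43660161, minus strand) follow each other in a cluster. Siglech (ENSMUSG00000051504, 55768178 to 55778925, plus strand) stands farther along. Only Cd22 overlapped another annotated gene, the antisense Gm29439, which held 6.06 to 25.8 expected counts per library. The library kit kept strand, but whether counting used it is not stated, so reads of that pair may be mixed.

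Promoter sequences of all 6 genes were found in the RefSeq table (build GRCm38.p6), and the 250 bases before each start were compared between members. The starts are those of RefSeq, which for Cd22, Cd33 and, by a few bases, Siglech lie inside the gene extents given above. The Cd33 window shown here is therefore within the GENCODE gene, whereas the Siglech window lies before its gene. The longest run shared by any of the 15 pairs was 16 bases long, between Siglecf and Cd33. The other 14 pairs shared at most 10 bases. The run is shown in capitals for these genes, on the strand of the gene, from chr7:43351307-43351336 (Siglecf) and chr7:43533306-43533335 (Cd33). Beside them stands a window of Siglech, chr7:55768016-55768045, whose capitals mark the reverse complement of GGAAGT, a hexamer found in many ETS factor sites that also lies within the shared run.
Siglecf: cacatgaAAAGTGGAAGTGTTTActttcca
Cd33: catgtggAAAGTGGAAGTGTTTAatcttca
Siglech: tgtgcaacaagcACTTCCcagtctgagcca
These windows were chosen after the sequences were seen. Searched on both strands, the 16-base run occurred in 2 of 32851 promoters, those of Siglecf and Cd33. The hexamer occurred in the promoters of Siglecf, Siglech and Cd33 and in 19.7% of all promoters of the same length. These matches describe the letters only.

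To compare the tissues, expected counts of 14427 genes were tested with edgeR's quasi-likelihood test, and levels are given as CPM, counts scaled to library size with TMM factors. All 6 receptors passed the filter on low counts, and all 6 were called lower in mLN at an adjusted p under 0.05. Siglecf, with 0 counts in every mLN library, passed the filter through its spleen counts alone. It could therefore only be called lower, and its place in the counts of this paragraph carries no weight for a shared direction. Of all genes tested, 45.5% were called in either direction, 23.8% lower and 21.8% higher in mLN. The libraries of the tissues did not overlap in CPM for any of the 6 receptors, which was so, with mLN lower, for 27.5% of the genes tested. At least 2-fold lower were 4 receptors, against 8.60% of the genes tested. Fewer cells of a type and less RNA per cell cannot be told apart in such bulk samples.

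**Figure D1:**
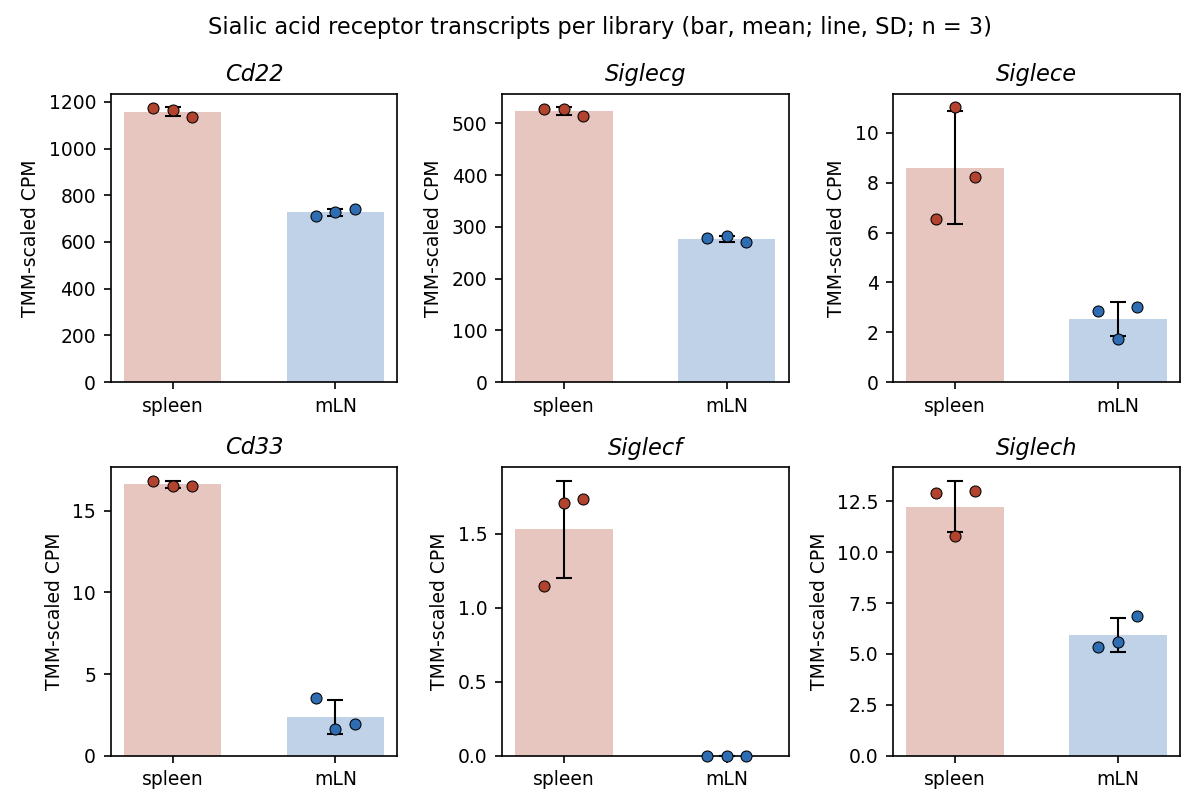
TMM-scaled CPM (vertical axes, each from 0) of each receptor in 3 spleen and 3 mLN libraries; points are libraries, bars means and lines SD. Every mLN point lies under every spleen point in each panel, and Siglecf is at 0 in all mLN libraries.

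Cd22, the inhibitory coreceptor of the B-cell receptor, was the most abundant of the 6. It stood at 1173, 1164 and 1137 CPM in the spleen libraries and at 712, 729 and 739 CPM in the mLN libraries. Replicates lay within a few percent of each other and far from the other tissue. Cd22 fell from 1158 ± 18.7 to 727 ± 13.8 CPM (SD, n = 3 each), with a log2 change of -0.67 (SE 0.0251, adjusted p = 6.20e-25, edgeR), and mLN kept 62.7% of the spleen level.

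Siglecg, which restrains B cells and is best known from B-1 cells, stood at 528, 528 and 514 CPM in spleen and at 279, 282 and 271 CPM in mLN. The spread within a tissue was again small beside the gap between tissues. Siglecg fell from 523 ± 7.80 to 277 ± 5.996 CPM (SD, n = 3 each; log2 fold change -0.92, SE 0.0296, adjusted p = 4.18e-27, edgeR), to 53.0% of the spleen level.

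B-cell markers fell beside both genes: 20 of 20 listed markers were lower, with a median log2 fold change of -0.81 (all genes tested, -0.002). Their summed level ranged from 9193 to 9313 CPM in the spleen libraries and from 5403 to 5533 CPM in mLN, and no marker was at 0. Among them Cr2, a complement receptor gene, had a log2 fold change of -1.47, the B-cell kinase gene Blk -1.12 and the antigen-receptor chain gene Cd79b -0.79. Cd22 fell less than 15 of the 20 markers, whereas 4 of them fell more than Siglecg. Of 7 marginal-zone B-cell markers 6 fell and 1 rose (median -0.73; summed 436 to 442 CPM in spleen and 354 to 369 CPM in mLN). The part of these markers' cells in the falls of Cd22 and Siglecg was not tested.

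Set against the mean log2 CPM of these markers within each library, Cd22 stood 1.79, 1.78 and 1.77 above them in spleen and 1.87, 1.90 and 1.90 above them in mLN. That is a difference of 0.11 between the tissues, which did not overlap (two-sided exact permutation p = 0.1, which is the lowest possible with 3 libraries a side; adjusted p = 0.109 over 12 such quantities). Siglecg went the other way, from 0.64, 0.64 and 0.63 above the markers in spleen to 0.52, 0.54 and 0.45 in mLN, a difference of -0.13 (exact permutation p = 0.1). It was -0.21 against the median marker, and -0.10 in TPM, where the tissues overlapped (exact permutation p = 0.3). Against the median in place of the mean of the markers, the difference of Cd22 was 0.032 and the tissues overlapped (exact permutation p = 0.5), and in TPM it was 0.18.

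The B-cell pair also shifted against each other. The log2 ratio of Cd22 to Siglecg was 1.15, 1.14 and 1.15 in the spleen libraries and 1.35, 1.37 and 1.45 in mLN. All 3 mLN libraries were above all 3 spleen libraries, by 0.24 on average (exact two-sided permutation p = 0.1, adjusted p = 0.109). With TPM in place of CPM the difference was 0.28.

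**Figure D2:**
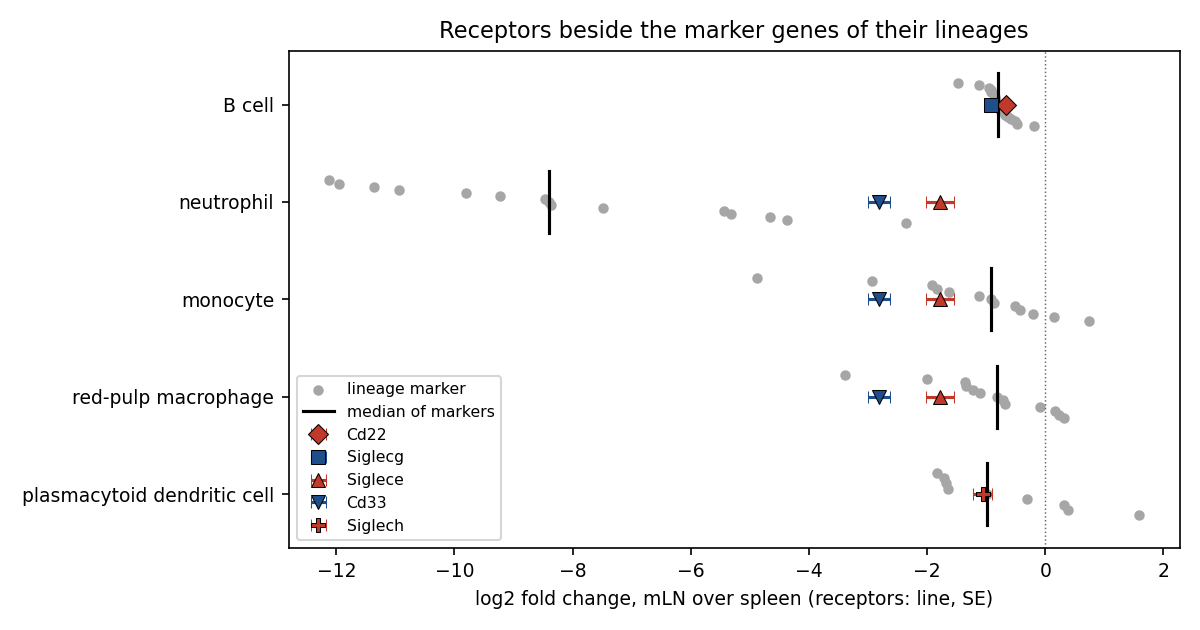
Log2 fold change of mLN over spleen (horizontal axis) for 5 receptors (large symbols; line, SE) beside the tested markers of each lineage (grey points; black line, their median). Cd22 and Siglecg lie within the B-cell markers, while Siglece and Cd33 lie to the right of nearly all neutrophil markers and to the left of most monocyte and red-pulp macrophage markers; Cd33 is at -2.81.

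Cd33, a receptor of myeloid cells, showed the largest fall among receptors with counts in both tissues. It stood at 16.8, 16.5 and 16.5 CPM in spleen and at 3.54, 1.63 and 1.94 CPM in mLN. The spleen libraries were nearly equal, while mLN replicate 1 was above the other mLN libraries. Cd33 fell from 16.6 ± 0.196 to 2.37 ± 1.02 CPM (SD, n = 3 each; log2 fold change -2.81, SE 0.192, adjusted p = 4.57e-16, edgeR), which is 7.03-fold. Its mLN values rest on 53, 29 and 24 counts. With RSEM's effective length as an offset the log2 fold change was -1.95 (adjusted p = 0.0186), since the abundance-weighted transcript length of Cd33 varied from 1538 to 3877 bases among mLN libraries and from 3458 to 5035 bases in spleen.

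Siglece, an inhibitory receptor of neutrophils, monocytes and macrophages, stood at 6.55, 11.03 and 8.25 CPM in spleen and at 2.87, 1.74 and 2.996 CPM in mLN. Spleen replicate 2 was the highest library and mLN replicate 2 the lowest. The mean fell from 8.61 ± 2.26 to 2.54 ± 0.690 CPM (SD, n = 3 each; log2 fold change -1.78, SE 0.235, adjusted p = 2.35e-08, edgeR), or 3.44-fold.

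Markers of the myeloid lineages set beside these genes mostly moved with both. Of all genes tested, 23.8% were called lower in mLN. All 15 neutrophil markers fell (median log2 fold change -8.41), from a summed 1749 to 1785 CPM in spleen to 21.8 to 23.9 CPM in mLN, where Ly6g and the granule protease gene Elane had no counts. Of 13 monocyte markers 11 fell and 2 rose (median -0.92; summed 1472 to 1486 CPM in spleen and 1096 to 1108 CPM in mLN). The falls were largest in Cd300e (-4.88) and the Fc receptor gene Fcgr4 (-2.94), and the rises were Ly6c2 (0.74) and the chemokine receptor gene Ccr2 (0.15). The call of Ccr2 was lost without spleen replicate 3 (adjusted p = 0.0545, edgeR) or mLN replicate 2 (adjusted p = 0.0809) and with the effective-length offset (adjusted p = 0.248). Of 13 red-pulp macrophage markers 8 fell, 0 rose and 5 were not called (median -0.82). The list summed to 218 to 236 CPM in spleen and 124 to 136 CPM in mLN. Its falls were led by the iron exporter gene Slc40a1 (-3.40) and the heme oxygenase gene Hmox1 (-1.999). Other lists of dendritic cells and macrophages went both ways. Of 9 tested conventional dendritic cell markers 7 fell and 0 rose. Of 8 tested migratory dendritic cell markers 6 rose and 2 fell. Of 4 tested marginal-zone and sinus macrophage markers 3 rose and 1 fell. The part of these lineages in the falls of Cd33 and Siglece was not tested.

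Measured within each library, both receptors were higher in mLN against the neutrophil markers and lower against the macrophage markers. Siglece stood at -3.31, -2.54 and -3.01 log2 units against the neutrophil markers in spleen and at 2.51, 1.85 and 2.65 in mLN, without overlap. The difference was 5.29 (exact two-sided permutation p = 0.1), and for Cd33 it was 4.19. These sizes depend on the prior count, because most neutrophil markers were near 0 in mLN: with a prior count of 0.5 in place of 2 they were 5.99 and 4.88.

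Against the monocyte markers the 2 receptors differed in how separate the tissues were. Cd33 stood at -1.96, -1.94 and -1.96 in spleen and at -2.92, -3.94 and -3.73 in mLN, a difference of -1.58 without overlap (exact permutation p = 0.1). For Siglece the values were -3.31, -2.52 and -2.94 in spleen and -3.21, -3.85 and -3.14 in mLN, so the tissues overlapped (difference -0.48, exact permutation p = 0.3). That difference was -0.25 without mLN replicate 2 and -0.27 without spleen replicate 2. Against the red-pulp macrophage markers the differences were -1.93 for Cd33 and -0.83 for Siglece, both without overlap (exact permutation p = 0.1 each). For Siglece it was -0.70 with overlap against the median macrophage marker (exact permutation p = 0.3), and -1.05 to -0.55 with single libraries left out. In TPM the Cd33 differences were -0.80 against monocyte markers and -1.19 against macrophage markers, with overlapping tissues (exact permutation p = 0.4 and 0.3).

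The log2 ratio of Cd33 to Siglece was 1.34, 0.58 and 0.99 in the spleen libraries and 0.29, -0.09 and -0.59 in mLN. Every mLN value lay below every spleen value, with a mean difference of -1.10 (exact two-sided permutation p = 0.1, adjusted p = 0.109). In TPM, which divides by the estimated transcript length of each library, the difference was -0.25 (exact permutation p = 0.8).

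**Figure D3:**
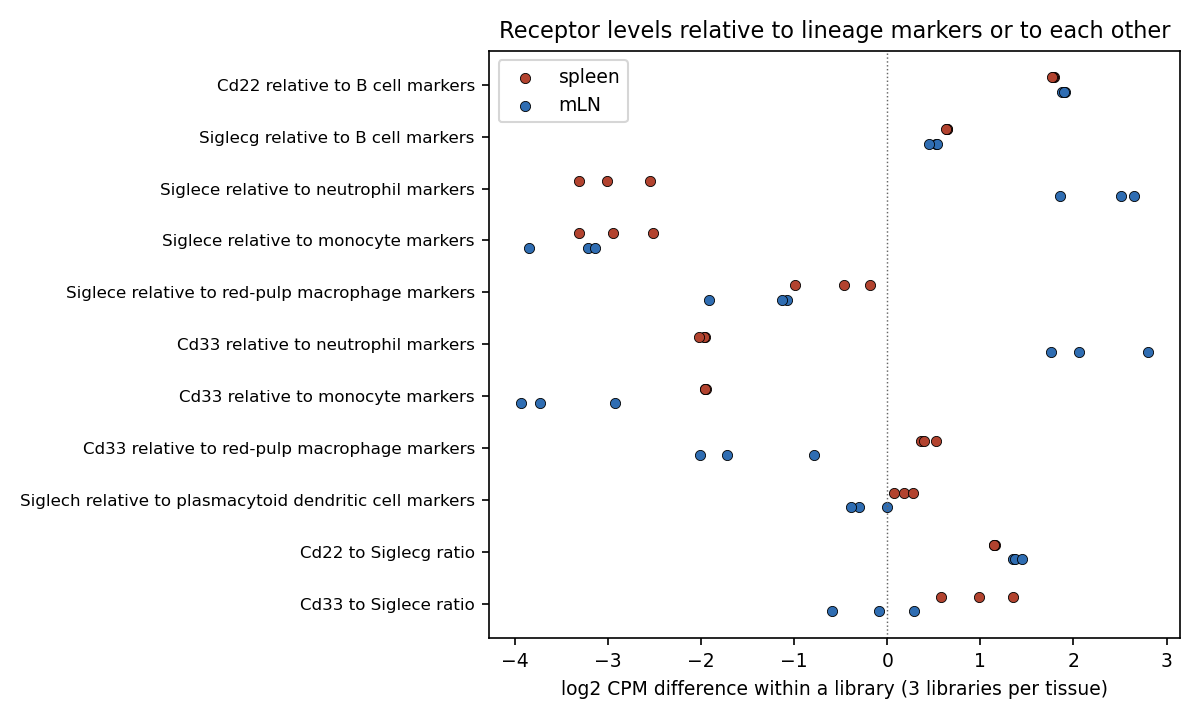
Log2 CPM difference within each library (horizontal axis) between a receptor and the mean of its lineage markers, or between 2 receptors of a lineage; 3 spleen (red) and 3 mLN (blue) libraries per row. Cd22 to Siglecg moves right in mLN (by 0.24) and Cd33 to Siglece moves left (by 1.10 on average), while Siglece against monocyte markers overlaps.

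Siglecf, the receptor by which mouse eosinophils are commonly recognised, was detected only in spleen. Its counts there were 20, 28 and 29 (1.15, 1.71 and 1.73 CPM), and each mLN library had 0. Taking 3 counts over the mLN libraries together as the floor, Siglecf was at least 23.7-fold lower in mLN (adjusted p = 1.72e-07, edgeR). It passed the filter on low counts through spleen alone, so a call in the other direction was not possible. A count of 0 in these libraries limits the transcript to below that floor and does not show that it is absent.

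Eosinophil markers were low or falling in the same libraries. Of 6 tested markers 5 fell and 0 rose (median log2 fold change -1.49), and the 9 listed markers summed to 66.4 to 71.6 CPM in spleen and 21.4 to 25.6 CPM in mLN, with Ear1 and Ear6 at 0 in mLN. The peroxidase gene Epx was at 10.1 ± 0.653 CPM in spleen and had 1 count in mLN, and the granule protein gene Prg2 had a log2 fold change of -4.84. Most of the mLN sum came from Il5ra, at 17.1 ± 1.38 CPM, an interleukin receptor gene that some B cells also express and that is named after its values were seen. Of the markers of basophils and mast cells, a neighbouring lineage, 7 of 7 tested were lower. The part of either lineage in the value of Siglecf was not tested. The difference of Siglecf against eosinophil markers, -1.32, has no meaning of its own with the receptor at 0, and was -2.90 with a prior count of 0.5.

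Siglech, of pDCs, stood at 12.9, 10.8 and 13.03 CPM in spleen and at 5.34, 5.57 and 6.88 CPM in mLN. The lowest spleen library was above the highest mLN library by more than the range within either tissue. Siglech fell from 12.2 ± 1.27 to 5.93 ± 0.834 CPM (SD, n = 3 each; log2 fold change -1.06, SE 0.161, adjusted p = 5.00e-07, edgeR), to 48.1% of the spleen level.

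The pDC markers did not move as a group: 5 fell, 3 rose and 1 was not called of 9 tested (median -0.98; summed 286 to 296 CPM in spleen and 271 to 276 CPM in mLN; none at 0). Those that fell more than Siglech were Cox6a2 (-1.84), Smim5 (-1.67) and Upb1 (-1.64), with Klk1 at -1.72 but not called (adjusted p = 0.0506, edgeR). All 4 averaged under 5 CPM in both tissues, and the call of Cox6a2 was lost without spleen replicate 3 (adjusted p = 0.0786). Also called lower were the more abundant Tcf4, from 126.7 ± 1.79 to 64.1 ± 2.06 CPM (-0.98, adjusted p = 8.01e-21, edgeR), and Runx2 (-0.32). The B-cell markers had a median log2 fold change of -0.81, and which cells held the Tcf4 transcripts was not tested. The rises were in Ccr9 (1.59), a gut-homing receptor gene that T cells also express, Pacsin1 (0.39) and Lifr (0.31). Upb1, Klk1, Tcf4, Runx2 and Lifr are named to complete these counts. Against the mean of the markers Siglech stood at 0.18, 0.07 and 0.28 in spleen and at -0.30, -0.39 and -0.005 in mLN, a difference of -0.41 without overlap (exact two-sided permutation p = 0.1). That value was -2.10 against the median marker and -0.10 in TPM (exact permutation p = 0.1 and 0.9).

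Levels of different genes were compared per length, in the authors' TPM, transcript abundances that sum to the same total in every library. In spleen Cd22 was at 621 ± 11.1 TPM and Siglecg at 257 ± 14.6 TPM (SD, n = 3), 2.41-fold apart. The remaining receptors lay far lower. Siglech was at 10.6 ± 1.38, Siglece at 8.43 ± 2.25 and Cd33 at 6.46 ± 1.27 TPM, each overlapping its neighbour in the order, and Siglecf followed without overlap at 1.03 ± 0.252 TPM.

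The order by mean TPM was the same in mLN. Cd22 was at 391.7 ± 19.4, Siglecg at 134 ± 7.82 and Siglech at 5.26 ± 1.09 TPM, with no overlap between neighbours. Siglece (2.33 ± 0.700 TPM) and Cd33 (1.86 ± 1.72 TPM) overlapped, and exchanged places without mLN replicate 3. Cd22 and Siglecg together held 97.1 ± 0.165% of the summed TPM of the 6 receptors in spleen and 98.2 ± 0.647% in mLN, while that sum fell from 905 ± 17.8 to 535 ± 14.9 TPM. Within the sum, Cd22 took 67.5%, 68.7% and 69.7% in the spleen libraries and 71.8%, 72.5% and 75.2% in mLN, and Siglecg 29.7%, 28.4% and 27.2% against 25.7%, 26.3% and 23.2%.

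For each receptor, the genes with the most similar profile were sought among 11391 genes, by the root mean square difference of centred log2 CPM over the 6 libraries. With 2 tissues this measures mostly the tissue difference, and it is a description. Closest to Cd22 were the class II gene H2-Eb1 (0.0169 log2 units), Serinc3 (0.0176) and Plcg2, a phospholipase gene of B-cell receptor signalling (0.0182). Among the closest to Siglecg were Srpk3 (0.0204) and Wdfy4 (0.0213).

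The less abundant receptors had less similar neighbours. Their profiles rest on fewer counts, and the part of counting error in these distances was not tested. For Siglech the neighbours included Nusap1 (0.0407) and the Toll-like receptor adaptor gene Ticam2 (0.0549). For Siglece they were Dab2ip (0.126), Tcf7l2 (0.152) and the lectin gene Clec4a2 (0.185), and for Cd33 Ncam1 (0.134), Prkar2b (0.152) and the cytokine gene Il1b (0.166). Siglecf was nearest to Lin28a (0.236), also at 0 in mLN, March8 (0.238) and S1pr5 (0.246).

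Other genes of the pathway were taken from 6 lists. Over the lists together, 15 genes rose and 21 fell of 51 tested, with a median log2 fold change of -0.11. Over all genes tested 21.8% rose and 23.8% fell, with a median of -0.002, and nothing particular to the pathway is read from its counts. Among the other Siglec genes 1 of 2 tested rose and 0 fell. Siglec1, the sialoadhesin of macrophages, stood at 2.01, 1.04 and 1.97 CPM in spleen and at 20.3, 16.6 and 16.3 CPM in mLN, in the opposite direction to the 6 receptors (log2 fold change 3.40, adjusted p = 1.36e-18, edgeR). Mag, the myelin-associated member of the family, was not called (log2 fold change -0.72, adjusted p = 0.262, edgeR). Markers of marginal-zone and sinus macrophages moved with Siglec1: 3 of 4 tested rose and 1 fell, with a summed 7.99 to 11.4 CPM in spleen and 31.7 to 34.6 CPM in mLN, and their part in its rise was not tested.

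Of 15 signalling partners 11 fell and 4 rose (median log2 fold change -0.18; 45.5% of all genes tested were called). The kinase genes Syk (-1.08) and Lyn (-0.91) and the adaptor gene Tyrobp (-0.96) fell most. Lyn, whose product phosphorylates the tails of CD22 and Siglec-G, went from 296 ± 10.9 to 158 ± 7.12 CPM (SD, n = 3 each), and Tyrobp, the partner of Siglec-H, from 52.3 ± 4.75 to 26.8 ± 2.22 CPM. Ptpn6, the phosphatase gene, fell less, from 640 ± 6.05 to 580 ± 4.71 CPM (log2 fold change -0.14, adjusted p = 1.68e-05, edgeR). The rises were led by the adaptor gene Hcst (0.68), the T-cell kinase gene Fyn (0.58) and the ubiquitin ligase gene Cbl (0.24). T-cell markers rose beside these in 15 of 15 genes (median 1.15; summed 1909 to 1922 CPM in spleen and 4479 to 4533 CPM in mLN). The falls stood beside those of the B-cell markers (20 of 20 lower, median -0.81), neutrophil markers (15 of 15 lower) and monocyte markers (11 of 13 lower). Btk, which fell, is on both the partner list and the B-cell marker list. The part of these lineages in the values of the partners was not tested.

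**Figure D4:**
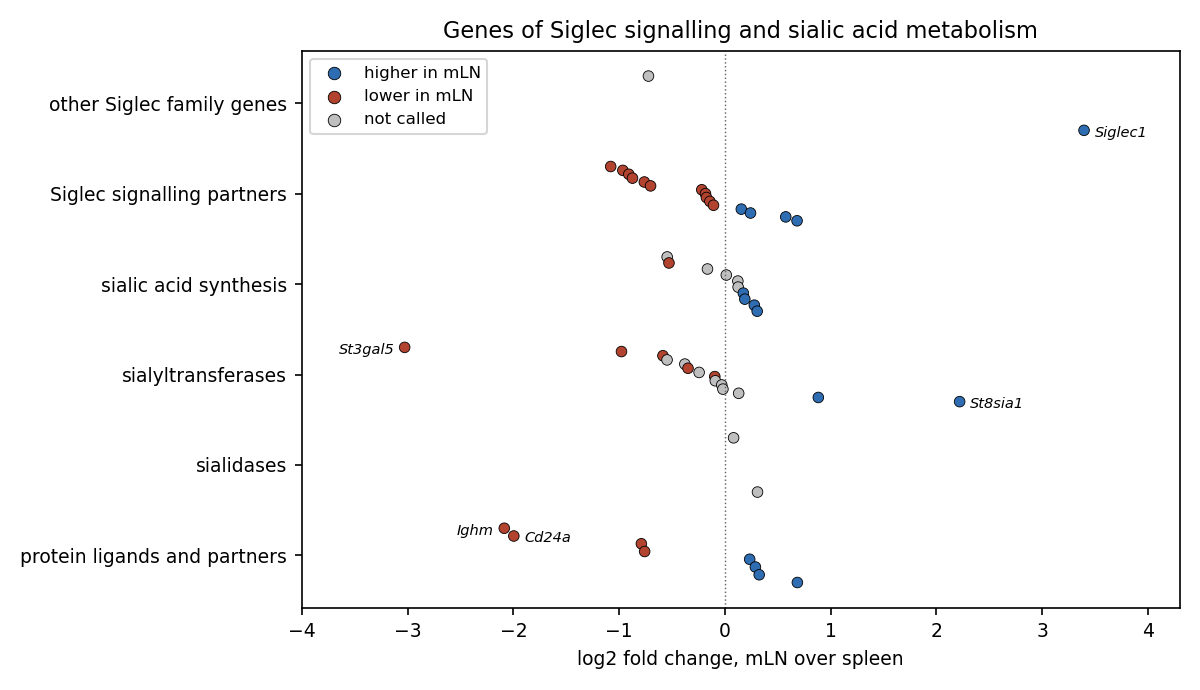
Log2 fold change of mLN over spleen (horizontal axis) of the tested genes of 6 pathway lists; blue and red points were called higher and lower at an adjusted p under 0.05, grey points were not called. Siglec1 at 3.40 and St8sia1 at 2.22 lie far to the right and St3gal5 at -3.03 far to the left, while sialic acid synthesis genes stay near 0.

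Of 10 genes for synthesis and activation of sialic acid 4 rose, 1 fell and 5 were not called (median log2 fold change 0.12), beside 45.5% of all genes called. Cmah, which makes the glycolyl form of sialic acid that mouse CD22 prefers, rose from 377 ± 5.79 to 457 ± 0.649 CPM (SD, n = 3 each; log2 fold change 0.28, adjusted p = 5.17e-11, edgeR). Slc35a1, the transporter gene for activated sialic acid, was at 0.30 and Gne, which encodes the enzyme of the first steps of synthesis, at 0.19. Renbp, of amino sugar turnover, was at -0.53. Except for Cmah, each of these calls was lost when some library was left out. Slc35a1 lost its call without spleen replicate 1 or 2 or mLN replicate 2 or 3 (adjusted p from 0.0557 to 0.276, edgeR). Gne lost it without spleen replicate 1 (adjusted p = 0.0666) or mLN replicate 2 (0.0838), and Renbp without mLN replicate 3 (0.0815) or replicate 2 of either tissue (0.0594 for spleen, 0.0513 for mLN). With the effective-length offset all 3 lost their calls: Renbp was then at -0.09 (adjusted p = 0.813, edgeR), Slc35a1 at 0.11 (adjusted p = 0.734) and Gne at 0.23 (adjusted p = 0.105). Slc35a1 also missed the threshold with DESeq2 (adjusted p = 0.0502).

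Sialyltransferases, which attach sialic acid to glycans, were called in both directions: 2 rose, 5 fell and 7 were not called of 14 tested (median log2 fold change -0.17), again beside 45.5% of all genes called. St6gal1, which makes the linkage that CD22 binds, fell slightly, from 338 ± 3.74 to 316 ± 4.52 CPM (SD, n = 3 each; log2 fold change -0.10, adjusted p = 0.00806, edgeR), a call lost with the effective-length offset (adjusted p = 0.104). St3gal5, the GM3 ganglioside synthase gene, fell from 29.4 ± 3.16 to 3.57 ± 0.425 CPM (log2 fold change -3.03), and St3gal2 was at -0.98. St6galnac3 was at -0.59, and its call held without mLN replicate 2 but was lost without each of the other libraries (adjusted p from 0.0561 to 0.152, edgeR) and with the effective-length offset (-0.43, adjusted p = 0.244). St8sia1, the GD3 ganglioside synthase gene, rose from 14.2 ± 1.78 to 66.1 ± 2.18 CPM (2.22), and St8sia6 had a log2 fold change of 0.88. Of the sialidases, which remove sialic acid, 0 of 2 tested were called, with Neu1 at 0.08 and Neu3 at 0.31 (adjusted p = 0.272 and 0.0801). At an unadjusted p under 0.05 it was 1 of 2, DESeq2 called 0 of 2, and Neu3 was called without mLN replicate 1 (adjusted p = 0.0136).

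Among 8 genes of proteins that Siglecs bind or work beside, 4 rose and 4 fell. Of all genes tested 21.8% were called higher and 23.8% lower in mLN. Cd79a and Cd79b, among the falls, are also on the B-cell marker list. Cd24a, whose sialylated product is a known ligand of Siglec-G, fell from 284 ± 1.78 to 71.2 ± 3.25 CPM (SD, n = 3 each; log2 fold change -1.996), and the IgM heavy chain gene Ighm, of the B-cell receptor that CD22 restrains, was at -2.09. Ptprc, which encodes CD45, itself a ligand of CD22, was at 0.29. Selplg rose by 0.69 and the heavily sialylated mucin gene Spn by 0.32. B-cell markers (20 of 20 lower) moved with Cd24a and Ighm, plasma cell markers (8 of 9 lower, 0 higher; summed 1078 to 1089 CPM in spleen and 406 to 425 CPM in mLN) with Ighm. Erythroid markers, 10 of 10 lower (summed 2229 to 2330 CPM in spleen and 18.3 to 24.5 CPM in mLN), moved with Cd24a as well, although the sort for CD45 would remove most red-cell precursors. Neutrophil markers fell in the same comparison (15 of 15 lower, summed 1749 to 1785 CPM in spleen and 21.8 to 23.9 CPM in mLN). The part of these lineages in both falls was not tested.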

How the data were processed

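Per the submitters' processing notes, the authors used STAR, RSEM and the build mm10. The sources used here give neither versions nor the annotation or strand setting of the counting. The authors' tables hold expected counts, TPM and abundance-weighted gene lengths for each library. Identifiers were matched to symbols in GENCODE M21 (55141 of 55487). Expected counts were rounded, filtered with filterByExpr (14427 genes kept), scaled by TMM and tested with the robust quasi-likelihood test of edgeR 4.0.16 in R 4.3.3, tissue being the only term. Benjamini-Hochberg adjustment ran over all 14427 genes. Each adjusted p printed for a gene comes from edgeR, except where DESeq2 is named, and each SE is derived from the F statistic. With an assumed coefficient of variation, edgeR's likelihood ratio test at that fixed value took the place of the quasi-likelihood test. The deposited TPM was used for levels between genes and in alternatives as log2(TPM + 0.1). Log2 CPM for lineage comparisons used a prior count of 2. Exact permutation tests used the 20 assignments of libraries (scipy 1.17.1). Floors cover counting error only, as reads carried no molecular identifiers.

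The 6 receptors were named whatever their values. From each pathway list the rule takes up to 3 called genes in each direction, or, where none was called, the 2 most abundant. It takes up to 2 in each direction from each marker list used, the 3 nearest profiles (mean of at least 1 CPM; some are not reported here), and Ptpn6, Lyn, Tyrobp, St6gal1, Cmah and Siglec1. Members and lists were chosen with earlier results of these data known. Alternatives were DESeq2 1.42.0, other scalings, filters, a length offset, a replicate block, each library left out and assumed coefficients of variation.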

Additional observations from a re-analysis of the deposited data

How the results depend on the processing

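Under the 16 alternatives all 96 log2 fold changes of the receptors were lower in mLN, a direction fixed for Siglecf by its 0 counts there. Of these values, 93 kept an adjusted p under 0.05. The exceptions came with a coefficient of variation of 0.4 assumed for every gene (edgeR estimated 0.055), which left 3 of 6 receptors called. Cd22 then had -0.67 (adjusted p = 0.758, edgeR), Siglecg -0.92 (adjusted p = 0.384) and Siglech -1.05 (adjusted p = 0.268). With 0.2 assumed, all 6 were called. Counts over all genes were 934 higher and 1934 lower with 0.2, and 197 and 726 with 0.4, against 3139 and 3430. Pathway genes numbered 5 higher and 12 lower with 0.2, and 2 and 3 with 0.4. Leaving out each library in turn gave 2777 to 2984 higher and 3077 to 3338 lower genes, and log2 fold changes from -0.69 to -0.66 for Cd22, -0.93 to -0.90 for Siglecg, -1.95 to -1.55 for Siglece, -1.16 to -0.99 for Siglech and -3.23 to -2.57 for Cd33. The order by TPM in mLN changed for 0 to 2 receptors.

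Deviations of same-numbered libraries correlated across genes at 0.027, 0.028 and -0.008, and those of differently numbered libraries at -0.039 to 0.012. Spleen replicate 3 did not correlate best with its own number. Such small correlations among 3 libraries a tissue cannot show whether same-numbered libraries share an animal, which the labels do not say. With the replicate block 3073 genes were higher and 3382 lower, and the receptors had log2 fold changes of -0.67 (Cd22), -0.92 (Siglecg), -1.76 (Siglece), -7.61 (Siglecf), -1.05 (Siglech) and -2.83 (Cd33), all called. A sign-flip test over the numbered pairs cannot go below 0.25. No result of any alternative changed direction. Depth limits Siglecf (77 spleen counts) and the mLN values of Cd33 (106 counts) and Siglece (111 counts).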
